A study of Mus musculus with 4 samples.

Results

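The immediate early and AP-1 genes were followed by name: 35 symbols, of which 34 were among the 28693 features counted and 1, Cebpd, is not analysed here. They comprise 9 AP-1 and related basic leucine zipper genes, 3 EGR genes, 8 other early transcription regulators, 4 heat shock genes, 8 feedback regulators and 2 other early response genes. The list is by symbol and uses no measured value. The single-cell RNA-sequencing libraries came from 4 mice, 2 per condition, and each mouse was 1 dissociation and 1 library. Control mice (CTL, labelled WT) carried floxed Lats1 and Lats2 alleles and a heterozygous R26-lsl-EYFP reporter without Cre. The LATS1/2-KO mice carried the same floxed alleles with Krt8-CreERT2, a tamoxifen-inducible Cre driven by a luminal keratin promoter, and the reporter was heterozygous in replicate 1 and homozygous in replicate 2. All 4 mice, CTL included, were adult nulliparous females that received 2 mg of tamoxifen on 5 consecutive days and were collected 7 days after the last dose. Glands were digested enzymatically at 37 °C for 1 h and sorted for live cells without selection of a cell type. Since Cre is driven in luminal cells, stromal and immune cells are compared here between mice that differ in the luminal genotype. Basal cells were gated by markers, and the paper describes luminal-basal plasticity of Lats1/2-null cells. The LATS1/2-KO basal gate may therefore hold cells of luminal origin.

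Immediate early genes are transcribed within minutes of a growth factor, cytokine or stress signal without new protein synthesis, through factors such as serum response factor, CREB and NF-κB that are already present. FOS and JUN proteins pair through leucine zippers to form AP-1, which binds DNA and drives later genes, while dual specificity phosphatases (DUSPs), the mRNA-destabilizing protein encoded by Zfp36, SOCS3 and the IκBα inhibitor encoded by Nfkbia switch the signal off. In freshly isolated tissue the same genes, together with the inducible heat shock genes, are known to respond to warm enzymatic dissociation. Here genotype and the handling of each gland cannot be told apart for any single mouse, since each library is 1 mouse and 1 preparation.

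A total of 18200 of 20324 barcodes passed the cell filter, with 38792520 to 46810771 unique molecular identifiers (UMIs) per library, and 16091 of these cells (88.4%) were placed in a lineage by marker genes. Hormone receptor-negative luminal cells (luminal ER-) numbered 2027 to 3036 per library, luminal ER+ cells 248 to 1245, basal cells 150 to 321, fibroblast-like cells 21 to 918 and endothelial cells 34 to 238. The share of cells left without a lineage was 4.58% and 3.41% in CTL and 18.4% and 17.8% in LATS1/2-KO. Of these unassigned LATS1/2-KO cells, 25.9% and 22.9% had an EYFP UMI, and they were not in the lineage sums. Of the gated cells, 551 lay near the limit of the gate, and 43 barcodes occurred in more than 1 library. In clusters built without the member genes, CTL and LATS1/2-KO epithelial cells separated, with CTL luminal ER- cells mainly in clusters 2, 3 and 5 and LATS1/2-KO ones in clusters 0, 1 and 12. Luminal ER+ cells were mainly in clusters 4, 11 and 18 for CTL against 9 and 13 for LATS1/2-KO, and basal cells in cluster 16 against cluster 7. The luminal ER- marker list fell from a median of 1430 and 1865 CPM (the counts of a gene scaled to a fixed library sum) in CTL to 268 and 300.0 CPM in LATS1/2-KO luminal ER- cells, while none of its 11 markers was at 0 in any library. Lats1 was counted at 25.7 and 25.6 CPM in CTL and 14.4 and 17.1 CPM in LATS1/2-KO luminal ER- cells (log2 difference -1.04 ± 0.11, adjusted p = 0.000293), and Lats2 at 15.4 and 17.1 against 27.2 and 30.2 CPM. These 3' counts can lie outside the floxed exons, so that neither value measures the deletion. EYFP was at 0.362 and 0.431 CPM in CTL and 76.6 and 114 CPM in LATS1/2-KO luminal ER- cells.

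The DNA just upstream of these genes is shown first. RefSeq promoter entries were found for 28 of the 35 members, and not for Fosl1, Egr1, Egr3, Ier2, Hspa8, Myc and Cebpd. The 250 bases before each start site were searched on both strands for short motifs of factors known to act on early genes. The 28 members had 40 windows, and a member is named below if any of its windows held the motif, while shares are per window. The cyclic AMP response element TGACGTCA, bound by CREB and ATF proteins, was in 1.55% of all 32851 promoter windows and in those of Maff, Btg2 and Dusp1. The CArG box of serum response factor, 10 bases long, was in 1.47% of windows and in those of Egr2, Dusp5 and Zfp36. A pair of inverted heat shock factor repeats, GAANNTTC, was in 6.69% of windows and in those of Fosl2, Jun, Hspa1a, Hspa1b and Sgk1. The AP-1 site TGACTCA or TGAGTCA was in 4.46% of windows and in none of the members' windows, the TEAD motif GGAATG in 12.6% of windows and in those of Egr2, Nr4a1 and Sgk1, and TATAAA in 12.4% of windows and in those of Fos and Sgk1. A match is a stretch of letters and not a measured binding event. The last 180 bases before the start site are given 5′ to 3′ on the gene's strand (GRCm38.p6), with the motif named for each gene in capitals, to set the promoters of genes that were lower beside those of genes that were higher in LATS1/2-KO cells. Fos (chr12:85473710-85473889, plus strand) has the TATA box in capitals, Zfp36 (chr7:28379229-28379408, minus strand) the CArG box, and Btg2 (chr1:134079156-134079335, minus strand) and Dusp1 (chr17:26508473-26508652, minus strand) the cyclic AMP element. Hspa1a (chr17:34972157-34972336, minus strand) and Hspa1b (chr17:34959239-34959418, minus strand) have the heat shock motif in capitals and match at 179 of 180 bases.
Fos: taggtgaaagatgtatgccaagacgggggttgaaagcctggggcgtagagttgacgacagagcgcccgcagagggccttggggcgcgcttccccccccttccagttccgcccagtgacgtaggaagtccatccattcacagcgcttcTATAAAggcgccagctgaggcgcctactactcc
Zfp36: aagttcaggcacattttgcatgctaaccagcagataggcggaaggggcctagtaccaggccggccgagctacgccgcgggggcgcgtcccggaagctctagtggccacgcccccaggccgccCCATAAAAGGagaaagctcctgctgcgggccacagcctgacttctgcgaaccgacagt
Btg2: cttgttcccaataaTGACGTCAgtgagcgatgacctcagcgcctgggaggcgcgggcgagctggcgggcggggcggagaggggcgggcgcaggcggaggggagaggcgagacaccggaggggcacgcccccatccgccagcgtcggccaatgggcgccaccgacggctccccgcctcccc
Dusp1: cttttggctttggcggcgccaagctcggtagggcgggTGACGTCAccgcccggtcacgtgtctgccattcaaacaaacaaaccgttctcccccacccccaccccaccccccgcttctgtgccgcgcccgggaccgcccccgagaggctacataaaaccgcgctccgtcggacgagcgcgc
Hspa1a: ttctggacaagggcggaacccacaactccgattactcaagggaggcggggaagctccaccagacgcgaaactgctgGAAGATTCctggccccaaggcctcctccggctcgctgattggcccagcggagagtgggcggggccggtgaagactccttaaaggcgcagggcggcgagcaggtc
Hspa1b: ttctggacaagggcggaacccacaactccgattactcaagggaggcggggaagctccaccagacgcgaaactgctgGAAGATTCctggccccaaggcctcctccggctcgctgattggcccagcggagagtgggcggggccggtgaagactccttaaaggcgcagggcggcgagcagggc

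Btg2 and Dusp1 share the cyclic AMP element but moved in opposite directions in luminal ER- cells, as given next. Hspa1a and Hspa1b are neighbouring, near-identical genes on chromosome 17, so reads may be split between them and their separate levels are uncertain.

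Luminal ER- was the gated lineage with the largest number of cells with an EYFP UMI, 385 and 511 in LATS1/2-KO. Their share was 19.0% and 23.8%, below the 21.1% and 47.2% of LATS1/2-KO luminal ER+ cells. In luminal ER- cells 26 of the 34 members were lower and 4 were higher in LATS1/2-KO at an adjusted p under 0.05. Of all 13610 genes tested, 29.5% were lower and 32.0% were higher. The median log2 difference of the members was -1.39, against 0.01 for all genes tested. All 9 AP-1 and leucine zipper genes and all 3 EGR genes were lower, while Hspa1a, Hspa1b, Dusp1 and Sgk1 were higher and Klf2, Dusp2, Ier3 and Rhob were not called. The CTL and LATS1/2-KO libraries did not overlap for 32 of the 34 members in luminal ER- cells, which with 2 libraries a group was also the case for 83.4% of 13607 gene symbols. Levels below are CPM after TMM scaling of the summed counts, given for replicates 1 and 2 of each condition in turn, and differences are LATS1/2-KO relative to CTL on the log2 scale with their SE.

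Of the AP-1 subunits, Fosb changed most. Fosb, an inducible FOS family member that pairs with JUN proteins, was at 3266 and 3548 CPM in CTL and 384 and 507 CPM in LATS1/2-KO (log2 difference -2.93 ± 0.16, adjusted p = 2.34e-05), a 7.64-fold difference with no overlap of the libraries. Fos, the founding member of the family, was at 3185 and 4399 CPM in CTL and 1080.0 and 1286 CPM in LATS1/2-KO (log2 difference -1.68 ± 0.18, adjusted p = 0.000295). Its CTL libraries were further apart than those of Fosb, yet both LATS1/2-KO libraries were below them. Fosl1, which encodes FRA1 and is often high in mesenchymal and basal-like cells, was at 105 and 94.3 CPM in CTL and 32.0 and 30.7 CPM in LATS1/2-KO (log2 difference -1.67 ± 0.10, adjusted p = 2.95e-05). Fosl2, which encodes FRA2, had the smallest difference of the 9, from 110.3 and 99.0 CPM in CTL to 67.5 and 75.3 CPM in LATS1/2-KO (log2 difference -0.55 ± 0.10, adjusted p = 0.00338). The 4 FOS family genes thus spanned -2.93 to -0.55 on the log2 scale.

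The JUN genes were lower too. Jun, at 3099 and 3442 CPM in CTL and 1044 and 1069 CPM in LATS1/2-KO, fell about as much as Fos (log2 difference -1.63 ± 0.11, adjusted p = 4.38e-05). Junb, which often limits JUN activity, was at 2002 and 2049 CPM in CTL and 704 and 855 CPM in LATS1/2-KO (log2 difference -1.38 ± 0.12, adjusted p = 0.000153). Jund, commonly the steadiest of the JUN genes and here the highest in CTL, was at 4676 and 4578 CPM in CTL and 1130.4 and 1011 CPM in LATS1/2-KO, the largest difference of the 3 (log2 difference -2.11 ± 0.11, adjusted p = 2.17e-05). The libraries of the conditions did not overlap for any JUN gene. Atf3, a stress-induced repressor that dimerizes with JUN proteins, was at 2644 and 2389.7 CPM in CTL and 631 and 696 CPM in LATS1/2-KO (log2 difference -1.92 ± 0.11, adjusted p = 3.01e-05). Maff, a small MAF protein without a transactivation domain, was at 453 and 416 CPM in CTL and 67.6 and 65.7 CPM in LATS1/2-KO (log2 difference -2.71 ± 0.10, adjusted p = 9.97e-06) and stood second to Fosb. Summed over the 9 genes without TMM scaling, AP-1 and leucine zipper counts made up 17311 and 18766 CPM in CTL and 5722 and 6340 CPM in LATS1/2-KO.

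**Figure D1:**
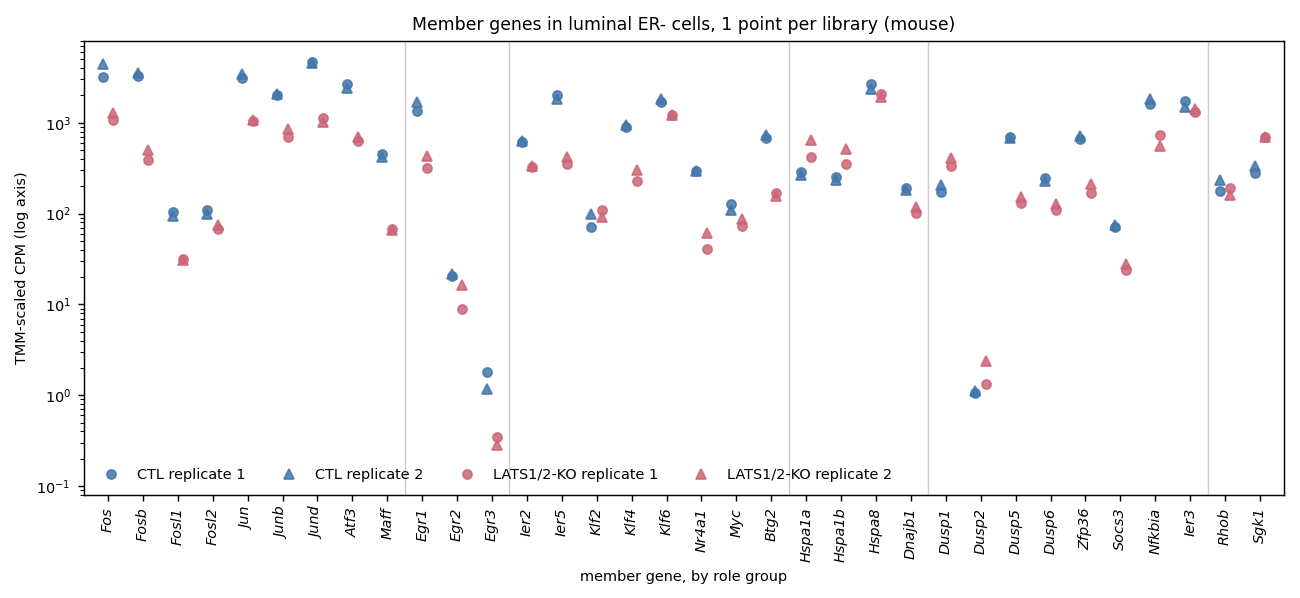
TMM-scaled CPM on a log axis for each of the 34 measured members, in columns by role group, in luminal ER- cells; each point is 1 library, blue for CTL and red for LATS1/2-KO. CTL points lie above LATS1/2-KO points for every AP-1 gene, and below them for Hspa1a, Hspa1b, Dusp1 and Sgk1.

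The zinc finger genes of the EGR family, which act downstream of serum response factor, followed the AP-1 genes. Egr1 was at 1352 and 1701 CPM in CTL and 319 and 432 CPM in LATS1/2-KO (log2 difference -2.02 ± 0.18, adjusted p = 0.000151). Egr3 was rare, with 44 and 24 UMIs in CTL and 8 in each LATS1/2-KO library, that is 1.80 and 1.16 CPM in CTL and 0.344 and 0.284 CPM in LATS1/2-KO (log2 difference -2.23 ± 0.41, adjusted p = 0.00311). Egr2, at 20.4 and 21.4 CPM in CTL and 8.86 and 16.4 CPM in LATS1/2-KO, had the smallest difference of the family (log2 difference -0.72 ± 0.25, adjusted p = 0.0438). With cycling cells left out, an alternative added after the data were seen, the Egr2 difference was 0.013 ± 0.18 (adjusted p = 0.957). The Egr2 call was also lost without CTL replicate 1 (adjusted p = 0.0714) and without CTL replicate 2 (adjusted p = 0.0842). The cells with cell cycle transcripts were 507 of 3036 and 434 of 2192 luminal ER- cells in CTL against 1239 of 2027 and 1023 of 2151 in LATS1/2-KO.

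Among the other early transcription regulators, 7 of 8 were lower. Nr4a1, an orphan nuclear receptor, was at 291 and 296 CPM in CTL and 40.8 and 60.6 CPM in LATS1/2-KO (log2 difference -2.53 ± 0.18, adjusted p = 6.35e-05), the largest difference of the group. Ier5, a regulator linked to heat shock factor, and Btg2, an antiproliferative early gene, differed by -2.31 ± 0.13 and -2.13 ± 0.10. Klf4, a zinc finger factor of epithelial differentiation, differed by -1.80 ± 0.15 and Ier2 by -0.92 ± 0.09. Klf6 had the smallest called difference, from 1697 and 1845 CPM in CTL to 1205 and 1229 CPM in LATS1/2-KO (log2 difference -0.54 ± 0.10, adjusted p = 0.00339), close to that of Myc, the growth-promoting transcription factor, at 129 and 109 CPM in CTL and 73.5 and 86.4 CPM in LATS1/2-KO (log2 difference -0.57 ± 0.12, adjusted p = 0.00603). The Klf6, Myc and Fosl2 differences were -0.13, -0.15 and -0.10 with cycling cells left out and were then not called (adjusted p = 0.349, 0.268 and 0.408). Klf2, a flow-responsive factor best known from endothelium, was at 71.9 and 99.7 CPM in CTL and 111 and 91.6 CPM in LATS1/2-KO, with overlapping libraries (adjusted p = 0.255).

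The heat shock genes split. Hspa1a, which encodes the inducible HSP70, was at 289.9 and 268 CPM in CTL and 419 and 639.7 CPM in LATS1/2-KO (log2 difference 0.92 ± 0.19, adjusted p = 0.00547). Its near-copy Hspa1b was at 250.3 and 235 CPM in CTL and 355 and 513 CPM in LATS1/2-KO (log2 difference 0.84 ± 0.17, adjusted p = 0.00513). Both were higher in each LATS1/2-KO library than in either CTL library, and LATS1/2-KO replicate 2 exceeded replicate 1. The constitutive chaperone Hspa8 was at 2696 and 2369 CPM in CTL and 2095 and 1919.7 CPM in LATS1/2-KO (log2 difference -0.34 ± 0.11, adjusted p = 0.0382). Dnajb1, the HSP40 co-chaperone that is induced together with HSP70, was at 193 and 181 CPM in CTL and 101 and 118 CPM in LATS1/2-KO (log2 difference -0.77 ± 0.11, adjusted p = 0.000947). When library totals were used without TMM factors, 5 of the 30 luminal ER- calls were lost, those of Fosl2, Egr2, Klf6, Myc and Hspa8. Of these, the Hspa8 direction reversed. That scaling moved the median of all genes to 0.35. Thus the inducible HSP70 pair was higher while the AP-1 genes and the co-chaperone were lower in the same cells.

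The feedback regulators split as well. Dusp5, a nuclear phosphatase that inactivates ERK, was at 702 and 684 CPM in CTL and 129.9 and 152 CPM in LATS1/2-KO (log2 difference -2.30 ± 0.11, adjusted p = 1.87e-05). Dusp6, its cytoplasmic counterpart, was at 249 and 231 CPM in CTL and 111 and 127 CPM in LATS1/2-KO (log2 difference -1.01 ± 0.11, adjusted p = 0.000282). By contrast Dusp1, the phosphatase that acts mainly on p38 and JNK, was at 174 and 205 CPM in CTL and 338 and 406 CPM in LATS1/2-KO (log2 difference 0.97 ± 0.13, adjusted p = 0.00085). Zfp36, Socs3 and Nfkbia were lower, with log2 differences of -1.86, -1.48 and -1.41 on the log2 scale, with SE of 0.137, 0.106 and 0.154. Ier3, at 1728 and 1498 CPM in CTL and 1309.6 and 1404 CPM in LATS1/2-KO, was not called (adjusted p = 0.0953), nor was Dusp2, which stayed at or under 2.38 CPM in every library (adjusted p = 0.0972). Sgk1, a kinase induced by serum and glucocorticoids, was at 281 and 338 CPM in CTL and 699 and 698 CPM in LATS1/2-KO (log2 difference 1.17 ± 0.12, adjusted p = 0.000235), the largest increase of any member in these cells. The small GTPase gene Rhob, at 178 and 236 CPM in CTL and 190.3 and 161 CPM in LATS1/2-KO, overlapped between conditions (adjusted p = 0.226).

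Per cell, the early genes were lower across most of the distribution in LATS1/2-KO luminal ER- cells. After thinning each luminal ER- cell to 2000 UMIs, which left out 50 to 134 shallower cells per library, the summed Fos, Fosb, Jun, Junb, Egr1 and Ier2 count had medians of 16 and 19 UMIs in CTL and 8 and 9 UMIs in LATS1/2-KO cells. The 90th percentile was 58.8 and 67.9 against 21 and 27 UMIs, and 0.069% and 0.047% of CTL against 1.10% and 1.74% of LATS1/2-KO cells had none. The share of cells with a Fos UMI was alike in these thinned cells, 71.7% and 76.4% in CTL and 72.5% and 77.1% in LATS1/2-KO, although the mean number of Fos UMIs per cell was 6.33 and 8.60 against 2.67 and 3.56. Since Fos was counted in every gated lineage, no background share from cells lacking it can be given. Unthinned, the Fos share was 89.5% and 91.5% against 90.3% and 92.7%. For Fosb the thinned share itself differed, at 92.0% and 93.7% against 48.7% and 58.2%. The 4 heat shock genes had medians of 5 UMIs per cell in both CTL libraries and 7 in both LATS1/2-KO libraries.

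**Figure D2:**
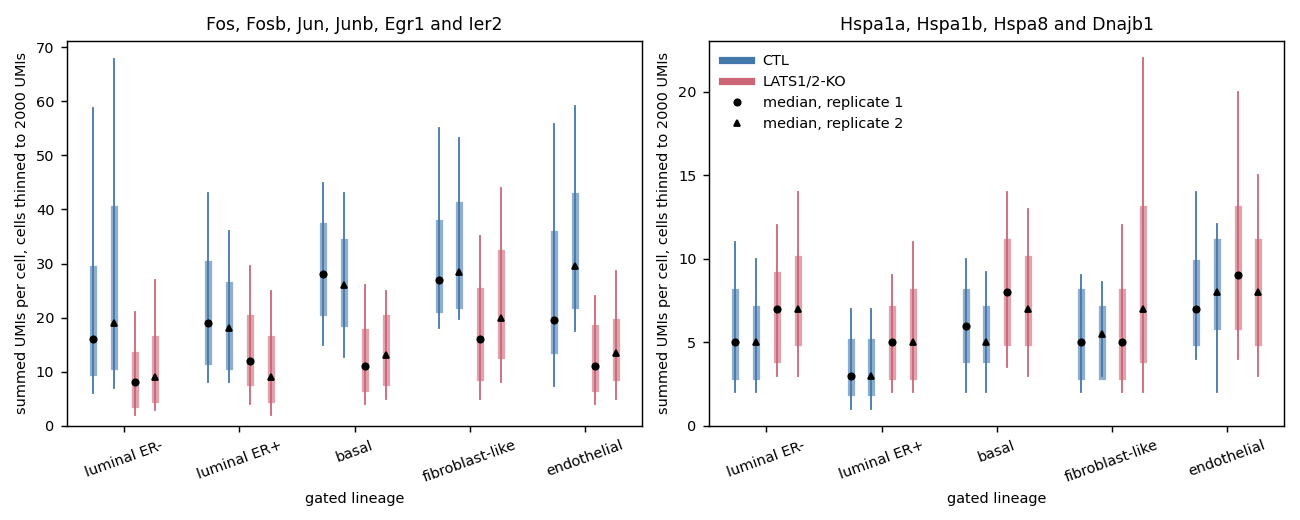
Summed UMIs of 6 early genes (Fos, Fosb, Jun, Junb, Egr1, Ier2) and of the 4 heat shock genes per cell after thinning to 2000 UMIs, by lineage and library. Black marks are medians, thick bars run from the lower to the upper quartile and thin bars from the 10th to the 90th percentile. In luminal ER- cells the early gene medians are 16 and 19 in CTL and 8 and 9 in LATS1/2-KO.

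Leaving out the cells with an EYFP UMI changed few of these calls: 28 of the 30 members remained called, without Egr2 and Hspa8, and 25 of 30 remained called without the cycling cells. The median mitochondrial share of luminal ER- cells was 4.03% and 3.72% in CTL and 3.34% and 4.12% in LATS1/2-KO, and the part of library quality, cell cycle and handling in these differences was not tested.

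In luminal ER+ cells, the hormone-sensing lineage, 17 of 33 members tested were lower and 8 were higher in LATS1/2-KO, against 18.0% and 19.6% of 12636 genes, and the member median was -0.65 against -0.01 for all genes. In all, 8 AP-1 and leucine zipper genes were lower and 1, Fosl2, was higher. Fosb was again the lowest of them, at 1960.2 and 1657 CPM in CTL and 678 and 522 CPM in LATS1/2-KO (log2 difference -1.59 ± 0.18, adjusted p = 0.00243). Fosl2 was at 37.8 and 34.4 CPM in CTL and 50.7 and 51.4 CPM in LATS1/2-KO (log2 difference 0.50 ± 0.12, adjusted p = 0.0201). The Fosl2 libraries did not overlap, but the call was lost when any 1 of the 4 libraries was left out (adjusted p = 0.055 to 0.125) and in DESeq2. Fos was at 3374 and 3051 CPM in CTL and 2300.1 and 1804 CPM in LATS1/2-KO and differed by -0.65 ± 0.16. Jun was at 3708 and 3191 CPM in CTL and 2361 and 1496 CPM in LATS1/2-KO and differed by -0.84 ± 0.24. Neither was called with cycling cells left out (adjusted p = 0.0780 and 0.0757). Egr1 was at 587 and 542 CPM in CTL and 284 and 235 CPM in LATS1/2-KO (log2 difference -1.12 ± 0.14, adjusted p = 0.00329). Egr2 was at 13.2 and 11.4 CPM in CTL and 4.03 and 4.81 CPM in LATS1/2-KO (log2 difference -1.50 ± 0.23, adjusted p = 0.00577). Both measured EGR genes were thus lower, although Egr2 was not called with cycling cells left out (adjusted p = 0.0639).

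Nr4a1 was lower, at 190.1 and 135 CPM in CTL and 40.8 and 40.9 CPM in LATS1/2-KO (log2 difference -1.99 ± 0.19, adjusted p = 0.00162). Myc was higher, at 39.8 and 35.3 CPM in CTL and 79.1 and 66.1 CPM in LATS1/2-KO (log2 difference 0.96 ± 0.14, adjusted p = 0.00492). Klf2 was also higher (0.68 ± 0.12), and Klf4 and Klf6 were not called (adjusted p = 0.87 and 0.474). The largest change of any member in this lineage was that of Hspa1a, at 98.6 and 90.6 CPM in CTL and 443 and 550.0 CPM in LATS1/2-KO (log2 difference 2.39 ± 0.15, adjusted p = 0.000582), a 5.24-fold increase. Hspa1b rose less, from 269 and 258 CPM in CTL to 384 and 543 CPM in LATS1/2-KO (log2 difference 0.81 ± 0.18, adjusted p = 0.0174), and Hspa8 and Dnajb1 were not called. The Hspa1a level over all kept cells of each library was 204 and 183 CPM in CTL and 531 and 826 CPM in LATS1/2-KO, so that the luminal ER+ level was under the library-wide level in all 4 libraries. Free RNA from other cells was not tested as a part of the Hspa1a difference.

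Of the feedback genes, Socs3, the inhibitor of JAK-STAT signalling, was at 303 and 199.7 CPM in CTL and 122 and 92.8 CPM in LATS1/2-KO (log2 difference -1.22 ± 0.23, adjusted p = 0.0113). Without LATS1/2-KO replicate 2 the Socs3 call was lost (adjusted p = 0.0772). Dusp1 was at 187 and 167 CPM in CTL and 372 and 448 CPM in LATS1/2-KO (log2 difference 1.21 ± 0.14, adjusted p = 0.00275), so the gain of Dusp1 seen in luminal ER- cells recurred in luminal ER+ cells. Ier3, a regulator of survival, was at 602 and 561 CPM in CTL and 1073 and 1147 CPM in LATS1/2-KO (log2 difference 0.93 ± 0.12, adjusted p = 0.00372). Sgk1 was at 505 and 502 CPM in CTL and 997 and 1152 CPM in LATS1/2-KO (log2 difference 1.09 ± 0.13, adjusted p = 0.00287). Dusp5, Zfp36 and Nfkbia were lower, with log2 differences of -0.84, -0.93 and -0.75. Dusp2, Dusp6, Btg2 and Rhob were not called, the last 2 at adjusted p of 0.0577 and 0.0518.

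In cells of the basal gate, named after the contractile outer layer, 9 and 23 LATS1/2-KO cells had an EYFP UMI. Of 33 members, 18 were lower and 7 higher, against 17.0% of 8718 genes in each direction. The member median was -0.60 against -0.003 for all genes. Fos was at 4746 and 4606 CPM in CTL and 1589 and 1762 CPM in LATS1/2-KO (log2 difference -1.48 ± 0.12, adjusted p = 1.34e-06). Junb was at 2884 and 2695 CPM in CTL and 946 and 1037 CPM in LATS1/2-KO (log2 difference -1.49 ± 0.12, adjusted p = 1.44e-06), 2.79-fold and 2.81-fold decreases of Fos and Junb. Fosb and Jun fell less, with log2 differences of -0.76 and -0.67, while Jund, Atf3 and Fosl2 were not called. Fosl1 alone among the AP-1 genes was higher, at 13.1 and 8.20 CPM in CTL and 46.0 and 32.2 CPM in LATS1/2-KO (log2 difference 1.86 ± 0.39, adjusted p = 0.00261). The Fosl1 values rest on 7 and 5 UMIs in CTL and 73 and 78 in LATS1/2-KO, and the level over all kept cells moved the other way, from 65.5 and 57.9 CPM to 28.6 and 27.7 CPM.

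Of the EGR genes, 2 were tested and both were lower. Egr2, known from Schwann cells and here highest in basal cells among the CTL lineages, was at 230.5 and 198 CPM in CTL and 23.3 and 20.3 CPM in LATS1/2-KO (log2 difference -3.31 ± 0.18, adjusted p = 3.77e-08), a 9.89-fold decrease. Egr1 was at 2278 and 2380.2 CPM in CTL and 377 and 472 CPM in LATS1/2-KO (log2 difference -2.45 ± 0.14, adjusted p = 6.14e-08). Btg2 was at 594 and 594 CPM in CTL and 235 and 159.6 CPM in LATS1/2-KO (log2 difference -1.60 ± 0.17, adjusted p = 1.23e-05) and Ier2 and Nr4a1 were lower, with log2 differences of -1.54 and -1.40. Klf6 went the other way, at 352 and 299 CPM in CTL and 1022 and 816 CPM in LATS1/2-KO (log2 difference 1.5 ± 0.15, adjusted p = 8.56e-06). Socs3, highest in basal cells in CTL, was at 1145 and 935 CPM in CTL and 174 and 244 CPM in LATS1/2-KO (log2 difference -2.30 ± 0.17, adjusted p = 5.14e-07). Dusp2, at 15.0 and 26.2 CPM in CTL and 1.26 and 5.37 CPM in LATS1/2-KO, rests on 8 and 16 UMIs in CTL and 2 and 13 in LATS1/2-KO (log2 difference -2.47 ± 0.53, adjusted p = 0.00296), and was not called without CTL replicate 2 (adjusted p = 0.134) or by DESeq2.

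Dusp6 was higher, at 149.9 and 113 CPM in CTL and 301 and 265 CPM in LATS1/2-KO (log2 difference 1.11 ± 0.17, adjusted p = 0.000221). Sgk1 was the largest increase, at 223 and 203 CPM in CTL and 995 and 718 CPM in LATS1/2-KO (log2 difference 2.01 ± 0.17, adjusted p = 1.85e-06). Rhob was at 122 and 118 CPM in CTL and 206 and 172 CPM in LATS1/2-KO (log2 difference 0.65 ± 0.16, adjusted p = 0.00681). Without CTL replicate 2 Rhob was not called (adjusted p = 0.0512), and DESeq2 did not call it either. The inducible HSP70 genes were higher, with Hspa1a at 620.2 and 495 CPM in CTL and 867 and 809 CPM in LATS1/2-KO (log2 difference 0.59 ± 0.14, adjusted p = 0.00546). Hspa1b was at 365 and 333 CPM in CTL and 641 and 632 CPM in LATS1/2-KO (log2 difference 0.87 ± 0.13, adjusted p = 0.000243). The Hspa1a call was lost without CTL replicate 2 (adjusted p = 0.0580). Dusp1, higher in both luminal lineages, was not called in basal cells (-0.01 ± 0.13, adjusted p = 0.961). Beside these values, the 10 epithelial markers summed to 1690 and 1381 CPM in CTL basal cells and 5410 and 7276 CPM in LATS1/2-KO ones, with none at 0. The median basal marker was at 590.1 and 605 CPM against 184 and 163 CPM. The summed luminal ER- markers were at 1852 and 2422 CPM in CTL and 2653 and 2184 CPM in LATS1/2-KO basal cells. Epithelial marker transcripts thus moved with the basal comparison. In plain CPM, EYFP was at 1.72 and 3.14 in CTL (1 and 2 UMIs) and 16.7 and 54.5 in LATS1/2-KO basal cells. The part of epithelial transcripts and of cells of luminal origin in the member values was not tested.

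**Figure D3:**
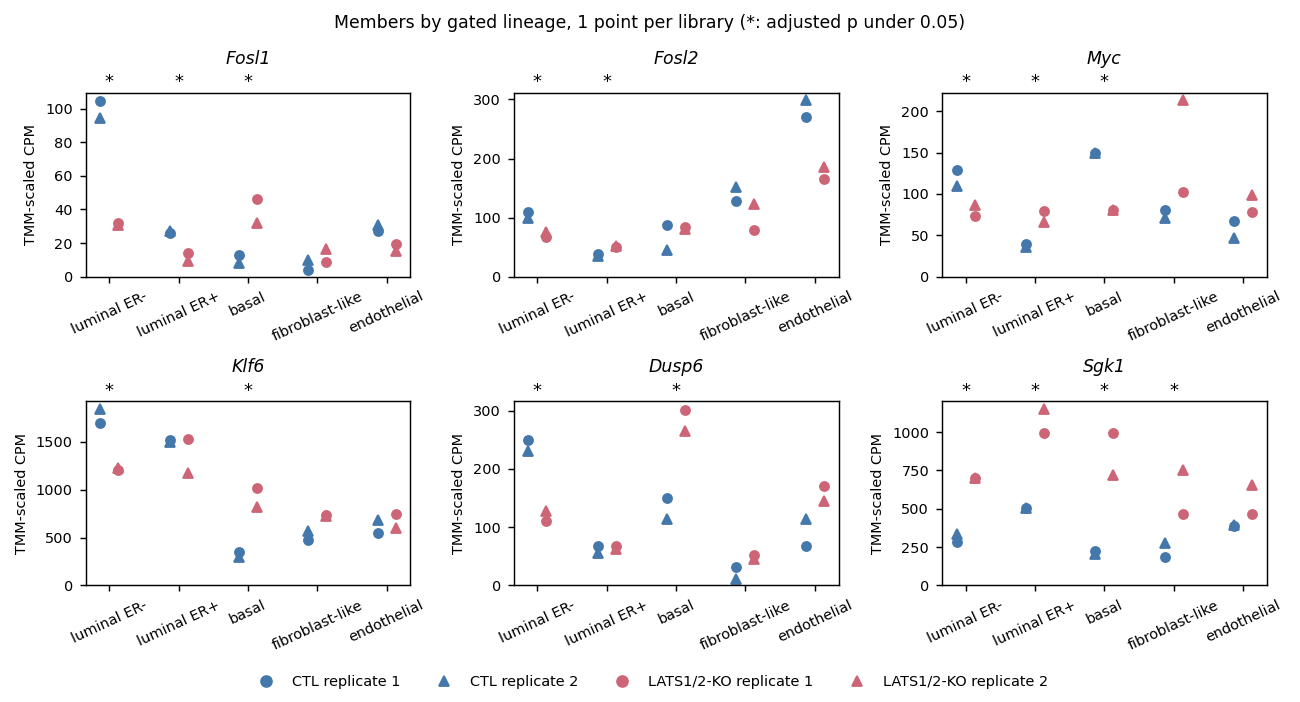
TMM-scaled CPM, on a linear axis from 0, of Fosl1, Fosl2, Myc, Klf6, Dusp6 and Sgk1 in each library of the 5 lineages tested; each point is 1 library and an asterisk marks a called difference. Fosl1, Klf6 and Dusp6 are lower in LATS1/2-KO luminal ER- cells and higher in LATS1/2-KO basal cells.

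Fibroblast-like and endothelial cells were compared from small CTL sums, and 7 to 27 of their LATS1/2-KO cells per library had an EYFP UMI. Fibroblast-like cells with cell cycle transcripts numbered 8 and 0 in CTL and 122 and 189 in LATS1/2-KO. Endothelial ones were 6 of 40 and 4 of 34 in CTL and 100 of 236 and 62 of 238 in LATS1/2-KO. No fit without cycling cells was run in these lineages. Of the clusters named fibroblast-like, cluster 6 held 60 and 28 CTL cells against 120 and 743 LATS1/2-KO cells. Cluster 14 held 2 and 0 CTL cells against 189 and 225 LATS1/2-KO cells. The part of this difference in fibroblast clusters in the member values was not tested. In fibroblast-like cells, with 58 and 21 cells in CTL and 327 and 918 in LATS1/2-KO, 1 of 32 members was lower and 3 were higher, against 2.00% and 2.04% of 8664 genes. Junb was at 3598 and 3446 CPM in CTL and 1008 and 1803 CPM in LATS1/2-KO (log2 difference -1.32 ± 0.31, adjusted p = 0.0476). Hspa1a was at 269.7 and 253 CPM in CTL and 803 and 1712 CPM in LATS1/2-KO (log2 difference 2.26 ± 0.39, adjusted p = 0.0152). Hspa1b was at 145 and 122 CPM in CTL and 599 and 1419 CPM in LATS1/2-KO (log2 difference 2.90 ± 0.45, adjusted p = 0.00908), and LATS1/2-KO replicate 2 was above replicate 1 for both. Sgk1 was at 185 and 274 CPM in CTL and 467 and 749.7 CPM in LATS1/2-KO (log2 difference 1.45 ± 0.34, adjusted p = 0.0499). Without CTL replicate 1 edgeR called 0 members, with adjusted p of 0.108 for Hspa1a and 0.0646 for Hspa1b and 5 of 33 under an unadjusted p of 0.05. Junb and Sgk1 were not called without CTL replicate 2 either (adjusted p = 0.136 and 0.0703). Fos, Fosb and Jun were not called (-0.59 ± 0.26, -0.55 ± 0.28 and 0.17 ± 0.24), and Myc, at 80.5 and 70.9 CPM in CTL and 103 and 214 CPM in LATS1/2-KO, was not called either (adjusted p = 0.219). The epithelial markers summed to 720.0 and 233 CPM in CTL and 2399 and 1089 CPM in LATS1/2-KO fibroblast-like cells.

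In endothelial cells, 10 of 33 members were called, 8 lower and 2 higher, against 6.42% of 7208 genes called in either direction. Fos was at 2069 and 3766 CPM in CTL and 863 and 1049 CPM in LATS1/2-KO (log2 difference -1.61 ± 0.28, adjusted p = 0.00503). Junb was at 3224 and 4188 CPM in CTL and 1781 and 2198 CPM in LATS1/2-KO (log2 difference -0.90 ± 0.23, adjusted p = 0.0415). Egr1 was at 1483 and 2557 CPM in CTL and 756 and 975 CPM in LATS1/2-KO (log2 difference -1.22 ± 0.27, adjusted p = 0.0204). For these 3 genes CTL replicate 1 was the lower CTL library, yet above both LATS1/2-KO libraries. Klf2, the flow-responsive endothelial factor and one of the members highest in endothelium, was at 938 and 2053 CPM in CTL and 524 and 489 CPM in LATS1/2-KO (log2 difference -1.56 ± 0.31, adjusted p = 0.0105). Ier2 was at 1023 and 1297 CPM in CTL and 467 and 462 CPM in LATS1/2-KO (log2 difference -1.32 ± 0.22, adjusted p = 0.00389). Klf4 and Nr4a1 were lower, with log2 differences of -1.47 and -1.37, and Zfp36 was at 1253 and 1544 CPM in CTL and 702 and 762 CPM in LATS1/2-KO (log2 difference -0.93 ± 0.22, adjusted p = 0.0247). The inducible HSP70 genes were again higher, with Hspa1a at 442 and 705 CPM in CTL and 1440.0 and 1347 CPM in LATS1/2-KO (log2 difference 1.29 ± 0.25, adjusted p = 0.00966). Hspa1b was at 185 and 242 CPM in CTL and 841 and 777 CPM in LATS1/2-KO (log2 difference 1.93 ± 0.24, adjusted p = 0.000711). Junb and Zfp36 were not called without LATS1/2-KO replicate 1 or without replicate 2, and Egr1 was not called without LATS1/2-KO replicate 1. The number of members called was 6 without LATS1/2-KO replicate 1 and 17 without CTL replicate 1. Epithelial markers summed to 983 and 297 CPM in CTL and 2099 and 1126 CPM in LATS1/2-KO.

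Macrophage-like cells numbered 8 and 7 in CTL, and lymphocytes 14 in LATS1/2-KO replicate 1, so neither was tested. In plain CPM, macrophage-like Junb stood at 2161 and 2564 in CTL and 1034 and 1438 in LATS1/2-KO, and Hspa1a at 151 and 85.5 against 423 and 616 CPM. The CTL values of Hspa1a rest on 6 and 3 UMIs. In lymphocytes, Hspa1a was at 34.3 and 21.4 CPM (14 and 3 UMIs) in CTL and 562 and 991 CPM (22 and 92 UMIs) in LATS1/2-KO. Dusp2, a phosphatase of activated lymphocytes, was at 666 and 993 against 307 and 538 CPM in lymphocytes.

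Across the 5 lineages tested, 29 of 34 members were lower in at least 1, 12 were higher in at least 1 and 7 moved both ways. Of the 14314 genes tested in any lineage, 37.9% were lower in at least 1, 37.8% were higher in at least 1 and 4.81% moved both ways. Junb alone among the members was lower in all 5, and 5 members were lower in 4. Hspa1a and Hspa1b were higher in all 5. Of the 6302 genes tested in all 5 lineages, 0.111% were lower and 0.413% higher in every one. These comparisons use the same 4 mice and are therefore not independent of each other. Levels were ranked among these 5 lineages only, without macrophage-like cells and lymphocytes. In CTL the highest level of the 5 fell in endothelial cells for 15 members, in luminal ER- cells for 9, in basal cells for 6 and in fibroblast-like and luminal ER+ cells for 2 each. In LATS1/2-KO the highest level fell in endothelial cells for 14 members, in fibroblast-like cells for 10, in luminal ER+ cells for 5, in basal cells for 4 and in luminal ER- cells for 1, Dusp5. Counts of this kind compare each gene with itself, since gene lengths were not used. The same ranking was not made for all genes, so whether these counts are particular to the members was not tested. The LATS1/2-KO placement of Egr3 in endothelial cells rests on 0 and 2 UMIs.

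**Figure D4:**
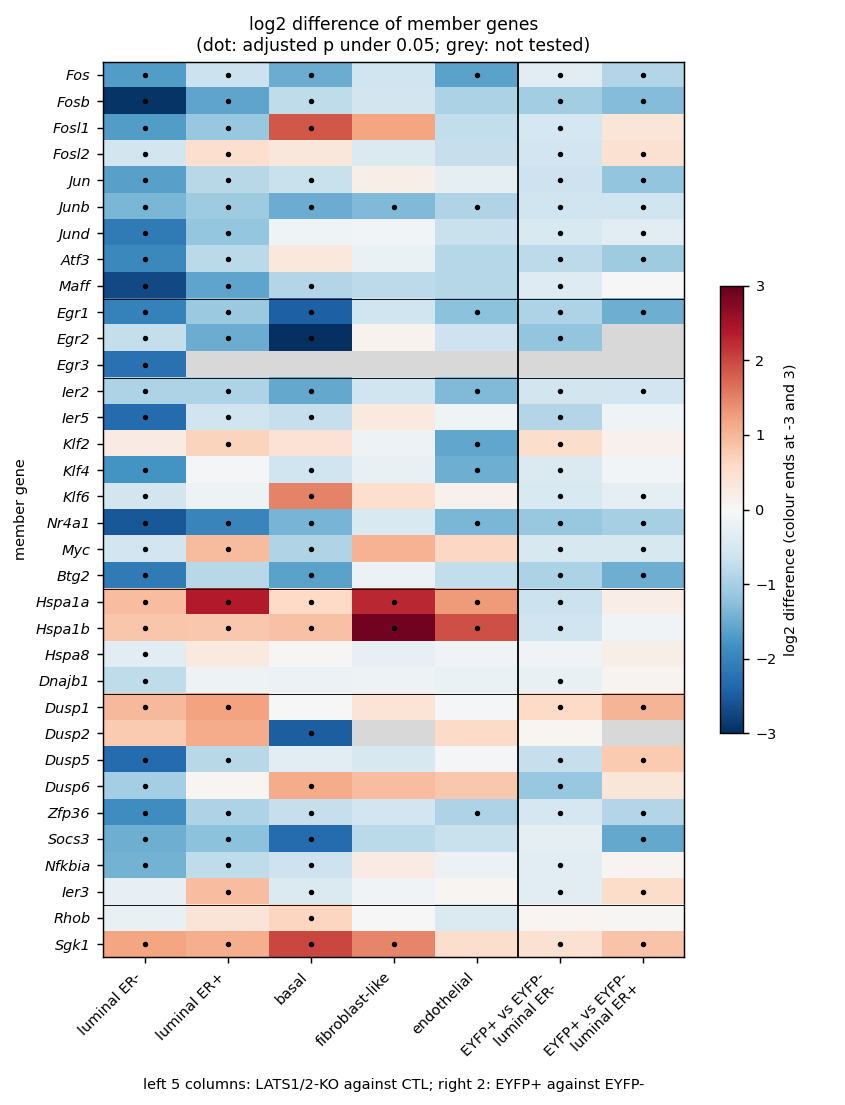
Log2 difference of each member (rows, by role group) as colour, blue for lower and red for higher, for LATS1/2-KO against CTL in 5 lineages and, right of the vertical line, EYFP+ against EYFP = 0 cells; a dot marks an adjusted p under 0.05, grey a gene not tested, and colour ends at -3 and 3. All AP-1 and EGR rows are blue in luminal ER- cells, and Hspa1a and Hspa1b are red in all 5 lineages.

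Whether the LATS1/2-KO effect itself differed between lineages was tested with an interaction term, with luminal ER- cells as the reference. A positive difference means a less negative or more positive effect in the other lineage, and not a higher level of the gene there. Against luminal ER+ cells, the effect differed for 21 of 34 members, and all 21 differences were positive. Of all genes, 22.9% differed in either direction. For Fosb the difference between the effects was 1.36 ± 0.23 (adjusted p = 0.00354), and for Jun 0.77 ± 0.21 (adjusted p = 0.0306), the range of the AP-1 genes called. Fosl2 and Myc, lower in luminal ER- and higher in luminal ER+ cells, differed by 1.07 ± 0.13 and 1.55 ± 0.17 (adjusted p = 0.000892 and 0.000504). Egr1 differed by 0.93 ± 0.23, Klf4 by 1.80 ± 0.17 and Btg2 by 1.26 ± 0.22. Hspa1a and Hspa8 differed by 1.5 ± 0.13 and 0.65 ± 0.12, whereas Hspa1b was not called (-0.01 ± 0.11, adjusted p = 0.961). Dusp5, Nfkbia and Rhob differed by 1.47 ± 0.14, 0.66 ± 0.13 and 0.62 ± 0.13. The Jun and Rhob calls were lost without CTL replicate 2 (adjusted p = 0.0582 and 0.0674). The Sgk1 and Dusp1 gains were not called different between the luminal lineages (-0.08 ± 0.13 and 0.25 ± 0.15, adjusted p = 0.724 and 0.262).

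Against basal cells the effect differed for 26 of 34 members, with 21 positive and 5 negative differences, where 22.1% of genes differed. Fosl1 had the largest interaction of any member called, 3.70 ± 0.33 (adjusted p = 1.49e-15), followed among the positive ones by Atf3, Fosb and Dusp6. The Dusp6 and Klf6 effects, opposite in sign in the 2 lineages, differed by 2.30 ± 0.16 and 2.21 ± 0.12 (adjusted p = 1.16e-21 and 3.24e-26). Fos was called at only 0.36 ± 0.11 (adjusted p = 0.00629), a call lost in 4 of 5 alternatives, and Junb was not (0.07 ± 0.10, adjusted p = 0.706). Egr2, Dusp2, Dusp1, Socs3 and Ier2 had lower effects in basal cells, with Egr2 at -2.44 ± 0.24, Dusp2 at -3.17 ± 0.67 and Ier2 at -0.43 ± 0.12. Dnajb1 and Hspa8 differed by 0.77 ± 0.15 and 0.54 ± 0.10, and Rhob and Sgk1 by 1.07 ± 0.16 and 0.99 ± 0.14. The Dusp2 call was lost without CTL replicate 2 and the Ier2 call without CTL replicate 1.

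Against fibroblast-like cells the effect differed for 22 members, all with positive differences, where 12.4% of genes differed. Against endothelial cells it differed for 21, with 19 positive and 2 negative differences, where 9.83% of genes differed. The median of all genes in these fits was 0.40 and 0.29 on the log2 scale, so the member values are to be read against that shift. In fibroblast-like cells Fosl1 differed by 3.03 ± 0.77 and Fos by 1.22 ± 0.29, Egr1 and Egr2 by 1.57 ± 0.28 and 1.01 ± 0.37, and Ier5 and Klf6 by 2.75 ± 0.29 and 1.19 ± 0.29. The effect was higher there also for Hspa1b and Hspa1a, by 2.10 ± 0.32 and 1.42 ± 0.30, and for Dusp6 and Socs3, by 2.08 ± 0.47 and 0.75 ± 0.27. Fibroblast-like Fosl1 rests on 1 and 1 UMIs in CTL and 16 and 72 in LATS1/2-KO. Fibroblast-like Dusp6 rests on 8 and 1 UMIs in CTL and 94 and 200 in LATS1/2-KO. Without CTL replicate 1 the calls of Fosl1, Fos, Egr2, Klf6, Hspa1a and Socs3 were lost, without CTL replicate 2 those of Fos, Egr2 and Socs3, without LATS1/2-KO replicate 1 that of Egr2, and without LATS1/2-KO replicate 2 those of Fosl1 and Socs3. In endothelial cells Fosb and Junb differed by 2.13 ± 0.18 and 0.64 ± 0.17, Egr1 by 0.99 ± 0.19, Ier5 by 2.34 ± 0.19, Hspa1b and Dnajb1 by 1.26 ± 0.26 and 0.73 ± 0.21, and Dusp5 by 2.40 ± 0.28. Klf2 and Dusp1 were the 2 with lower effects in endothelium, -1.57 ± 0.22 and -0.82 ± 0.21 (adjusted p = 4.56e-05 and 0.0148). The Dnajb1 call was lost without any 1 of the 4 libraries. The Junb and Dusp1 calls were lost without either LATS1/2-KO library, that of Dusp1 also without CTL replicate 2, and that of Hspa1b without LATS1/2-KO replicate 1.

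Within each LATS1/2-KO mouse, luminal ER- cells with at least 1 EYFP UMI were set against those with none, so that both sums came from the same mouse and the same dissociation. There were 385 and 511 EYFP+ cells against 1642 and 1640 with EYFP = 0 in replicates 1 and 2. In EYFP+ cells 26 of 33 members were lower and 3 were higher, against 20.5% and 19.7% of 12531 genes, and the member median was -0.51 against -0.02 for all genes. A cell without an EYFP UMI may still have recombined, since detection rises with depth: median UMIs were 7059 and 7373 in EYFP = 0 cells and 14283 and 16665 in EYFP+ cells. The share of cycling cells was 56.6% and 40.9% against 80.5% and 69.1%. An EYFP UMI was also counted in 2.97% and 5.04% of LATS1/2-KO endothelial cells, although Cre is driven in luminal cells. An EYFP+ cell may therefore not have recombined. Without the mouse as a block 11 members were called, 10 lower and 1 higher.

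All 9 AP-1 and leucine zipper genes were lower in EYFP+ cells. Fosb was at 509 CPM in EYFP = 0 and 252 CPM in EYFP+ cells of LATS1/2-KO replicate 1, and 712 and 338 CPM in replicate 2 (log2 difference -1.05 ± 0.05, adjusted p = 7.59e-09), lower in EYFP+ cells of both mice. Fos had the smallest difference, at 1262 CPM in EYFP = 0 and 1101 CPM in EYFP+ cells of LATS1/2-KO replicate 1, and 1604 and 1190.2 CPM in replicate 2 (log2 difference -0.32 ± 0.05, adjusted p = 0.000342), and was not called with cycling cells left out (-0.09 ± 0.07, adjusted p = 0.429). Atf3, Jun and Junb were lower, with log2 differences of -0.78, -0.62 and -0.60. Egr1 was at 418 CPM in EYFP = 0 and 221 CPM in EYFP+ cells of LATS1/2-KO replicate 1, and 593 and 309 CPM in replicate 2 (log2 difference -0.93 ± 0.05, adjusted p = 2.64e-08). Egr2 was at 11.7 CPM in EYFP = 0 and 5.87 CPM in EYFP+ cells of LATS1/2-KO replicate 1, and 23.7 and 9.69 CPM in replicate 2 (log2 difference -1.19 ± 0.15, adjusted p = 3.02e-05). Both EGR genes were thus lower in EYFP+ cells of both mice. Nr4a1 was at 53.5 CPM in EYFP = 0 and 28.0 CPM in EYFP+ cells of LATS1/2-KO replicate 1, and 87.5 and 36.3 CPM in replicate 2 (log2 difference -1.13 ± 0.10, adjusted p = 9.60e-07). Klf2 was higher, at 109 CPM in EYFP = 0 and 163 CPM in EYFP+ cells of LATS1/2-KO replicate 1, and 90.6 and 124 CPM in replicate 2 (log2 difference 0.52 ± 0.06, adjusted p = 2.79e-05).

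Hspa1a and Hspa1b, the inducible HSP70 genes, had opposite signs here and in the comparison with CTL. Hspa1a was at 521 CPM in EYFP = 0 and 353 CPM in EYFP+ cells of LATS1/2-KO replicate 1, and 844 and 516 CPM in replicate 2 (log2 difference -0.64 ± 0.05, adjusted p = 6.73e-07), thus lower in EYFP+ cells of both mice although higher in LATS1/2-KO than in CTL luminal ER- cells, and Hspa1b was lower, with a log2 difference of -0.59. With cycling cells left out Hspa1a and Hspa1b were not called (adjusted p = 0.0529 and 0.0728). Dnajb1 was at 117 CPM in EYFP = 0 and 107 CPM in EYFP+ cells of LATS1/2-KO replicate 1, and 144 and 116 CPM in replicate 2 (log2 difference -0.22 ± 0.07, adjusted p = 0.0159). Dusp6 was at 146 CPM in EYFP = 0 and 71.9 CPM in EYFP+ cells of LATS1/2-KO replicate 1, and 183 and 78.1 CPM in replicate 2 (log2 difference -1.13 ± 0.07, adjusted p = 6.46e-08), and was the most reduced feedback gene. Dusp1 was higher in EYFP+ cells, at 326 CPM in EYFP = 0 and 507 CPM in EYFP+ cells of LATS1/2-KO replicate 1, and 388 and 573 CPM in replicate 2 (log2 difference 0.60 ± 0.05, adjusted p = 8.56e-07). Sgk1 was higher too, at 712 CPM in EYFP = 0 and 961 CPM in EYFP+ cells of LATS1/2-KO replicate 1, and 680.5 and 961 CPM in replicate 2 (log2 difference 0.47 ± 0.05, adjusted p = 3.40e-06). Dusp1 and Sgk1 were therefore higher both in LATS1/2-KO against CTL and in EYFP+ against EYFP = 0 cells of the same mouse, in comparisons that share the LATS1/2-KO libraries.

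Of the 29 members called, 21 remained called with cycling cells left out and 22 when each cell was thinned to 2000 UMIs before EYFP was scored, and Maff reversed to 0.02 in the latter. The genes lost without cycling cells were Fos, Fosl1, Maff, Klf4, Hspa1a, Hspa1b, Dnajb1 and Nfkbia, and those lost on thinning were Fosl1, Fosl2, Maff, Egr2, Klf2, Klf4 and Dnajb1.

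In luminal ER+ cells, 119 and 117 EYFP+ cells were compared with 445 and 131 EYFP = 0 cells, and 14 of 31 members were lower and 5 higher, against 17.0% and 16.8% of 9574 genes. Fosb was at 850.3 CPM in EYFP = 0 and 395 CPM in EYFP+ cells of LATS1/2-KO replicate 1, and 899 and 311 CPM in replicate 2 (log2 difference -1.31 ± 0.10, adjusted p = 2.07e-22). Jun and Atf3 were lower, with log2 differences of -1.19 and -1.08, and Fosl2 was higher, at 46.5 CPM in EYFP = 0 and 66.4 CPM in EYFP+ cells of LATS1/2-KO replicate 1, and 45 and 59.2 CPM in replicate 2 (log2 difference 0.46 ± 0.17, adjusted p = 0.0291), a call not made by DESeq2. Egr1 was at 375 CPM in EYFP = 0 and 126 CPM in EYFP+ cells of LATS1/2-KO replicate 1, and 388 and 152 CPM in replicate 2 (log2 difference -1.46 ± 0.11, adjusted p = 1.83e-22). Btg2 was at 591 CPM in EYFP = 0 and 175 CPM in EYFP+ cells of LATS1/2-KO replicate 1, and 381 and 171 CPM in replicate 2 (log2 difference -1.47 ± 0.11, adjusted p = 1.38e-22). The smallest called difference of an early transcription regulator was that of Klf6 (log2 difference -0.29 ± 0.09, adjusted p = 0.0045), at 1729 CPM in EYFP = 0 and 1299.6 CPM in EYFP+ cells of LATS1/2-KO replicate 1, and 1312 and 1164 CPM in replicate 2. The Klf6 call was lost in DESeq2 (adjusted p = 0.153) and in edgeR without the mouse as a block (adjusted p = 0.183).

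Socs3 was at 159 CPM in EYFP = 0 and 57.7 CPM in EYFP+ cells of LATS1/2-KO replicate 1, and 163 and 52.9 CPM in replicate 2 (log2 difference -1.54 ± 0.14, adjusted p = 1.17e-17). Dusp1 was at 285 CPM in EYFP = 0 and 610.0 CPM in EYFP+ cells of LATS1/2-KO replicate 1, and 304 and 575 CPM in replicate 2 (log2 difference 1.02 ± 0.10, adjusted p = 2.80e-16). Sgk1 was at 776 CPM in EYFP = 0 and 1604 CPM in EYFP+ cells of LATS1/2-KO replicate 1, and 892 and 1404 CPM in replicate 2 (log2 difference 0.86 ± 0.09, adjusted p = 4.20e-14), again higher in the EYFP+ cells of both mice. Dusp5 and Ier3 were higher too (0.78 ± 0.20 and 0.56 ± 0.09), though DESeq2 did not call Dusp5. edgeR called 0 of the 4 heat shock genes in luminal ER+ cells, with Hspa1a at 0.20 ± 0.09 (adjusted p = 0.1); 2 of the 4 had an unadjusted p under 0.05, and DESeq2 called 0 of 4, with 0 under that unadjusted p. Whether EYFP effects differed between the luminal lineages was not tested.

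**Figure D5:**
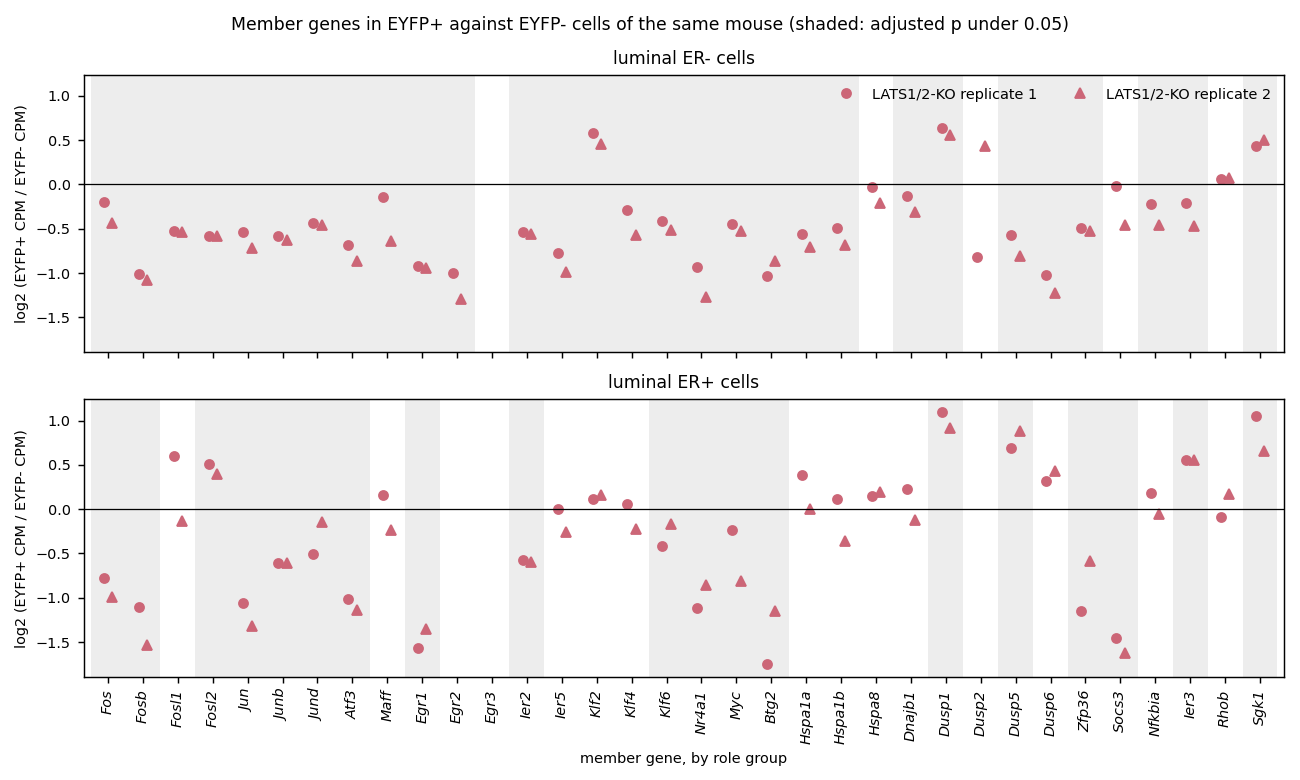
Log2 ratio of TMM-scaled CPM in EYFP+ over EYFP = 0 cells for each member in luminal ER- (top) and luminal ER+ cells (bottom), with 1 point per LATS1/2-KO mouse and shading for an adjusted p under 0.05. In luminal ER- cells the AP-1 genes, Egr1, Egr2, Hspa1a and Hspa1b lie below 0 in both mice, and Dusp1, Sgk1 and Klf2 lie above 0 in both.

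Other genes of the same response, taken from lists and not from their values, were counted in luminal ER- cells, where 32.0% of all genes were higher and 29.5% lower. The shares of the upstream genes and chaperones called lay near these. Of 13 further AP-1 family members and partners 2 were higher and 6 lower, with Mafk and Jdp2 lowest (-1.86 and -1.53) and Batf3 and Maf highest (2.48 and 0.85). Of 18 genes upstream, serum response factor partners, MAP kinases and NF-κB subunits, 5 were higher and 5 lower, from Nfkb1 at -1.70 and Rela at -1.32 to Mkl1 at 1.14 and Elk3 at 2.00. Of 20 further chaperones 8 were higher and 6 lower, with the small heat shock genes Hspb8 (3.69) and Cryab (1.09) highest and Hspa2 and the endoplasmic reticulum chaperone Hspa5 lowest (-1.63 and -1.49). Hspa5 encodes a chaperone of the unfolded protein response and not of the cytosolic heat shock response. Of 20 further feedback regulators 7 were higher and 10 lower, with Spry1 (2.49) and Dusp4 (1.67) highest and Cish (-2.07) and Dusp14 (-2.04) lowest.

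Of the further early response genes 17 of 25 were lower and 4 higher, with a median of -0.86. Nr4a3 fell from 50.6 and 45.9 CPM in CTL to 5.89 and 4.76 CPM (log2 difference -3.18), and Csrnp1 had a log2 difference of -2.03. Against these, Ptgs2, which encodes the inducible cyclooxygenase, was higher by 3.80 and Ccl2, a monocyte-attracting chemokine, by 5.35, each from under 8 CPM in CTL. In luminal ER+ cells 5 of 24 of this list were lower and 6 higher, near the 18.0% and 19.6% of all genes. In basal cells 11 of 24 were lower and 5 higher, against 17.0% of all genes in each direction. In fibroblast-like cells 2 of 25 were lower and 1 higher, against 2.00% and 2.04% of all genes. In endothelial cells 8 of 23 were lower and 1 higher, against 6.42% of all genes called in either direction. In EYFP+ luminal ER- cells 13 of 24 were lower and 6 higher, against 20.5% and 19.7% of all genes, and in EYFP+ luminal ER+ cells 4 and 9 of 23, against 17.0% and 16.8%.

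The other lists are to be read against the same shares of all genes in each comparison. The further AP-1 family members had 3 higher and 3 lower of 13 in luminal ER+ cells, 3 and 1 of 11 in basal cells and 1 higher of 12 in fibroblast-like cells. In EYFP+ against EYFP = 0 cells 10 of 13 were lower in luminal ER- cells and 3 of 10 in luminal ER+ cells. The upstream genes had 2 higher and 3 lower of 18 in luminal ER+ cells and 1 higher and 7 lower of 18 in EYFP+ luminal ER- cells. The further chaperones had 5 higher and 8 lower of 20 in luminal ER+ cells, where Cryab and Hspb1 were highest (3.80 and 2.35), and 3 and 5 of 20 in basal cells. The further feedback regulators had 3 higher and 4 lower of 20 in luminal ER+ cells, 1 and 4 of 20 in basal cells, and 3 and 11 of 20 in EYFP+ luminal ER- cells, where Errfi1, an inhibitor of the epidermal growth factor receptor, was lowest (-1.23).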

How the data were processed

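Single-cell 3' gene expression libraries of sorted live mammary cells from 4 mice were analysed, 2 CTL and 2 LATS1/2-KO. The authors deposited 1 filtered matrix of UMI counts per mouse, not normalized. The submitters' processing notes name Cell Ranger 3.1.0 and mm10, while the matrix headers carry Cell Ranger 6.1.2. Cells with more than 500 genes and under 20% mitochondrial counts were kept, as in the study's methods, and no doublet caller was run. A cell was gated to a lineage with at least 3 detected markers and a lead of 1.25 over the next lineage score, limits that were set after cell numbers had been seen.

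Counts were summed per mouse and lineage where every library had at least 20 cells, so lymphocytes, which had been planned for testing, and macrophage-like cells were described only. Sums were compared with edgeR 4.0.16 (quasi-likelihood test, TMM factors, low counts filtered, Benjamini-Hochberg adjustment over all genes tested, called at an adjusted p under 0.05). Mouse was a term in the EYFP and interaction fits, where sums share a mouse. The EYFP sums of 1 mouse share its library, so those p-values rest on 2 mice. Nothing in the labels names a batch. The scripts were tested on simulated data. The alternatives were RLE factors, DESeq2 1.42.0, no filter, other gates and limits, thinned sums, the replicate block and leaving out each library. Added after the data were seen were library totals without TMM factors, the fits without cycling or EYFP+ cells between conditions, and the alternatives of the luminal ER+ EYFP and interaction fits. In each comparison and role group the text names the called member with the largest and the smallest log2 difference, all AP-1 genes in luminal ER- cells, and up to 4 examples per further list. Other members are named after their values were seen. The members and lists were chosen with earlier results of these data known. Promoters came from RefSeq (GRCm38.p6).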

Additional observations from a re-analysis of the deposited data

Results flagged for a closer look

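The effect of LATS1/2-KO differed from that in luminal ER- cells, by the interaction term, for 21 members in luminal ER+ cells, 26 in basal cells, 22 in fibroblast-like cells and 21 in endothelial cells. Of these, 5 had called effects of opposite sign in the lineages compared. Fosl2 went from -0.55 in luminal ER- to 0.50 in luminal ER+ cells, a difference of 1.07 ± 0.13 on the log2 scale, and Myc from -0.57 to 0.96, a difference of 1.55 ± 0.17. In basal against luminal ER- cells, Fosl1 differed by 3.70 ± 0.33, Klf6 by 2.21 ± 0.12 and Dusp6 by 2.30 ± 0.16. Each of these was lower in LATS1/2-KO luminal ER- cells and higher in LATS1/2-KO basal cells. The luminal ER- calls of Fosl2, Myc and Klf6 were lost with cycling cells left out, and also with library totals without TMM factors. The luminal ER+ call of Fosl2 was lost in DESeq2.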

How the results depend on the processing

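The count of called members stayed within 1.5 times its value under every alternative run in luminal ER- (25 to 31, from 30), luminal ER+ (18 to 27, from 25) and basal cells (20 to 28, from 25), for EYFP+ luminal ER+ cells (13 to 20, from 19), and for the interactions other than that of fibroblast-like cells. In fibroblast-like cells it was 2 with RLE size factors and 2 with a mitochondrial share under 10%, against 4, and 0 to 10 when 1 library was left out (0 without CTL replicate 1, where 5 of 33 members had an unadjusted p under 0.05 in edgeR, and 10 without LATS1/2-KO replicate 2). In endothelial cells it was 4 without a filter on low counts, against 10, and 6 to 17 when 1 library was left out (6 without LATS1/2-KO replicate 1, 17 without CTL replicate 1). The fibroblast-like interaction count was 14 to 21 when 1 library was left out, with 14 without CTL replicate 1, against 22. Without the mouse as block, 11 members were called in EYFP+ luminal ER- cells, against 29. The Egr2 difference in luminal ER- cells reversed to 0.013 with cycling cells left out. The causes were not tested. For the genes that the naming rule picks in each comparison, 1010 of 1108 values under alternatives kept their direction and call, 97 lost the call and 1, that of Egr2, reversed. Outside that rule, Hspa8 in luminal ER- cells reversed with library totals and Maff in EYFP+ luminal ER- cells with thinned cells. DESeq2 called 20 of the 25 basal members and 13 of the 19 EYFP luminal ER+ members.

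The labels do not say whether replicate numbers pair mice. Correlations of the deviations of equally numbered mice were -0.006 to 0.041, which with 2 mice a condition cannot settle it. With the replicate block, 30, 26, 25, 4 and 13 members were called in luminal ER-, luminal ER+, basal, fibroblast-like and endothelial cells. The planned lymphocyte alternatives were not run. Among the tested lineages the CTL sums were smallest in fibroblast-like (243043 and 94575 UMIs) and endothelial cells (225906 and 195601 UMIs); the part of depth in their low counts of calls was not tested. With all sums thinned to the smallest library, 3 and 12 members were called there.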
